A study of Mus musculus with 77 samples.

Results

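The genes described here encode the nuclear subunits of the 5 complexes of oxidative phosphorylation in mouse dorsal root ganglia (DRG), the ganglia that hold the cell bodies of sensory neurons. They were chosen by symbol alone: Nduf followed by a, b, c, s or v, Sdha to Sdhd, Uqcr, Cyc1, Cox4 to Cox8 and Atp5, with the Ndufaf assembly factors left out. This gave 85 of the 18104 genes listed in any of the 6 count tables, and 60 of the 85 were listed in all 6. By their names 36 belong to complex I, 4 to complex II, 9 to complex III, 19 to complex IV (Ndufa4 and Ndufa4l2 included) and 17 to complex V. Atp5s, Atp5sl and Cox7a2l are not subunits but match the names, and they were counted as members. None of the 13 subunits encoded by mitochondrial DNA was among the genes listed.

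All mice carried Cre and the RiboTag allele, which adds an HA tag to the ribosomal protein Rpl22 in cells that express Cre, so that ribosomes and their RNA can be pulled down with an HA antibody (IP). The Cre lines were Dhh (glia), Runx3 (proprioceptive neurons), Isl1 and Adv (sensory neurons) and PGK (all tissue cells), each heterozygous for Cre. Mice were homozygous for Rpl22-HA except in the Adv line, where they were heterozygous. The strain was ICR for the Dhh, Runx3 and Isl1 lines and C57BL/6 for the Adv and PGK lines, so that strain and line cannot be told apart in Isl1 against Adv or PGK. Naive DRG gave an IP, a supernatant left after the pull-down and an input (whole lysate) in each line, with 3 libraries per group except 2 in the Dhh IP. A second set of libraries followed sciatic nerve injury at 4, 12 and 24 h beside its own naive libraries, in the Isl1 IP (3 libraries per group), the Isl1 input (3 naive and 2 at each time) and the Dhh IP (3 per group, 2 at 24 h). The study used males of 8 to 12 weeks. The Dhh libraries of the injury series bear a sensory neuron label and were grouped by their Cre line.

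Oxidative phosphorylation passes electrons from NADH (complex I) and succinate (complex II) through complex III and complex IV to oxygen, and complex V uses the proton gradient this makes to produce ATP. Neurons are known to depend strongly on this pathway for their energy, and in muscle and other tissues several complex IV subunits exist in alternative forms. The nuclear genes for the subunits are known to share promoter motifs of a small group of factors, among them NRF1, GABPA (an ETS factor), YY1 and the estrogen-related receptors, and they are often described as moving together.

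Promoters of 6 members are shown because these genes carry the patterns described below: Cox6a1, Atp5k, Sdhb and Atp5b as widely expressed subunits of 3 complexes, and Cox6b1 beside its alternative form Cox6b2, which moved the opposite way in glia. Each runs 5′ to 3′ over 250 bases before and 30 bases after the start (RefSeq, build GRCm38.p6), that of Cox6a1 at chr5:115348929-115349208 on the minus strand, that of Atp5k at chr5:108434370-108434649 on the minus strand, that of Sdhb at chr4:140961021-140961300 on the plus strand, that of Atp5b at chr10:128083057-128083336 on the plus strand, that of Cox6b1 at chr7:30626085-30626364 on the minus strand and that of Cox6b2 at chr7:4753065-4753344 on the minus strand. Capitals mark matches, on either strand, to the letters GCGCA followed at once by TGCGC (NRF1), CCGGAAG (ETS factors), AANATGGC (YY1) or AAGGTCA (estrogen-related receptors), and no 2 of the marked matches overlap.
Cox6a1: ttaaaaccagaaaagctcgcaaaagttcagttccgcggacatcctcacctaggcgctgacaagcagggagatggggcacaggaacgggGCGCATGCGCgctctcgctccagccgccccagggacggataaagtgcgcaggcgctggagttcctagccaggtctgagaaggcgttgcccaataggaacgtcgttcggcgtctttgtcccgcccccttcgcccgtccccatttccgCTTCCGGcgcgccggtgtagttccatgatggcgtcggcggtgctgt
Atp5k: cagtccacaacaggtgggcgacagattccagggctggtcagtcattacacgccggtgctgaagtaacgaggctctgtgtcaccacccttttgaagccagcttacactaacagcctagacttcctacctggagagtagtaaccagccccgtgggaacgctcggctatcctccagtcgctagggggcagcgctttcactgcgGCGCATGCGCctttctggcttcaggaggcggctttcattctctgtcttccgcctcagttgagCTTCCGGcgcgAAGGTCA
Sdhb: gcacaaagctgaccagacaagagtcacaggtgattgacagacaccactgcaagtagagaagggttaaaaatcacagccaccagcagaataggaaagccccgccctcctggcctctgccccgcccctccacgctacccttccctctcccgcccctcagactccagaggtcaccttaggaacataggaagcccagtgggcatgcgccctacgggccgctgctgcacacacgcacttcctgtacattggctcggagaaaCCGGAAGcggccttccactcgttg
Atp5b: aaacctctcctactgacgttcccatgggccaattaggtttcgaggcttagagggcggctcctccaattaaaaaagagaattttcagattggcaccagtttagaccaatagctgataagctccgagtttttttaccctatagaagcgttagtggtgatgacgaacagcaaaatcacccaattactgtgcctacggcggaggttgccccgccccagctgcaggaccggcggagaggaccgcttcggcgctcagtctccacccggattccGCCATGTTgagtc
Cox6b1: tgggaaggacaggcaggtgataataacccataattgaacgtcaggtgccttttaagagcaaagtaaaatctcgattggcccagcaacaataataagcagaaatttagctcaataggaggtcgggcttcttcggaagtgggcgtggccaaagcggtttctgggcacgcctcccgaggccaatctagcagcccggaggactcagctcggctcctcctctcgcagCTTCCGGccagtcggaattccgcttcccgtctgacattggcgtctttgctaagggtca
Cox6b2: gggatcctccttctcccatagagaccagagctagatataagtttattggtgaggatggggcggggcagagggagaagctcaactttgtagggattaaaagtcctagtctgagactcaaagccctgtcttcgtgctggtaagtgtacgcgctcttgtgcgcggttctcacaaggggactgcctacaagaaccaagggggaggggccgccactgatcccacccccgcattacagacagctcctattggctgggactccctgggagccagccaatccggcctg

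In these windows Cox6a1 held NRF1 letters from base -162 and ETS letters from base -16, Atp5k held NRF1, ETS and estrogen-related receptor letters from bases -50, 12 and 23, and Sdhb, Atp5b and Cox6b1 held a single match each. Cox6b2 held no match to any of the 4. Over windows of 300 bases (50 after the start), 72 promoters of 67 members could be searched and 18 members were without an entry. NRF1 letters stood in 6.9% of the member promoters, against 1.0% of all 32851 promoters. The share was 22.2% against 8.9% for the ETS letters, 22.2% against 6.1% for YY1 and 11.1% against 4.7% for the estrogen-related receptors. GGGCGG (SP1) stood in 38.9% against 35.7% and TATAAA in 11.1% against 13.6%. Against the 14133 promoters of the other genes listed in the naive IP libraries, the shares were 1.5% for NRF1, 12.4% for ETS, 6.7% for YY1 and 3.6% for estrogen-related receptor letters, but 56.1% for SP1 and 8.8% for TATAAA, so that the last pair turned direction. These matches are a description of letters, and matches of different motifs may share bases in the searched set.

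Library totals were 29710143 to 54088821 counts over the 76 libraries. Markers followed the pull-downs: the 13 sensory neuron markers summed to between 1262 and 1860 CPM (counts scaled to a library total of 1000000) in the Dhh IP, and between 34990 and 37240 CPM in the Isl1 IP, and those 10 of myelinating Schwann cells to 44620 to 45500 CPM in Dhh libraries and 878.5 to 1039 CPM in Isl1 libraries. Proprioceptor markers summed to 3396 to 4382 CPM in the Runx3 IP and 504.9 to 585.9 CPM in the Isl1 IP. Some naive libraries stood apart from others of their own line. In the IP table the main axis of within-line differences, computed from non-member genes, carried 70.1% of that variance and set off Adv replicate 2, Isl1 replicate 1, PGK replicate 2 and Runx3 replicate 2. The members moved along it, since the ratio of Cox5a counts to Atp5b counts was 0.625 to 1.82 in these 4 libraries and 0.121 to 0.536 in the other 10. In the supernatant table, where the axis carried 72.2%, 5 libraries stood apart (Adv, Dhh, PGK and Runx3 replicate 2 and Isl1 replicate 1). Every naive comparison is therefore given with all libraries and, as an alternative chosen after seeing the data, without the libraries that stood apart and, against input, their same-numbered inputs. The inputs also spread along such an axis, which carried 66.1% of their variance, with scores of -0.276 to 0.287, but none was set off. In the IP comparisons inputs with high scores, such as Dhh replicate 2 (0.287) and Adv replicate 3 (0.205), were kept. The alternative against input is therefore not free of this axis.

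The naive IP libraries listed 76 members, and their summed level differed between lines. Per transcript length, the Isl1 IP levels were led by complex IV and complex V subunits, with Ndufa4 at 1739, Cox6a1 at 1332, Atp5g3 at 1248 and Cox4i1 at 1243 FPKM (counts per transcript length and library total), while the median member stood at 226.2 FPKM. Over the 60 members listed in every table, the summed level was 11810 and 10590 CPM in the Dhh IP, 25220, 27550 and 27170 CPM in the Runx3 IP, and 21990, 16240 and 17710 CPM in the Isl1 IP. It was 19400, 20300 and 19230 CPM in the Adv IP and 15410, 19610 and 15650 CPM in the PGK IP. Thus the Runx3 IP lay above and the Dhh IP below all other pull-downs with no overlap, and the Isl1, Adv and PGK pull-downs overlapped. The group means of the 5 inputs lay between 18190 and 19310 CPM. Scaling by TMM effective library size put the Runx3 mean at 29180 CPM, against 26650 CPM by library total.

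**Figure D1:**
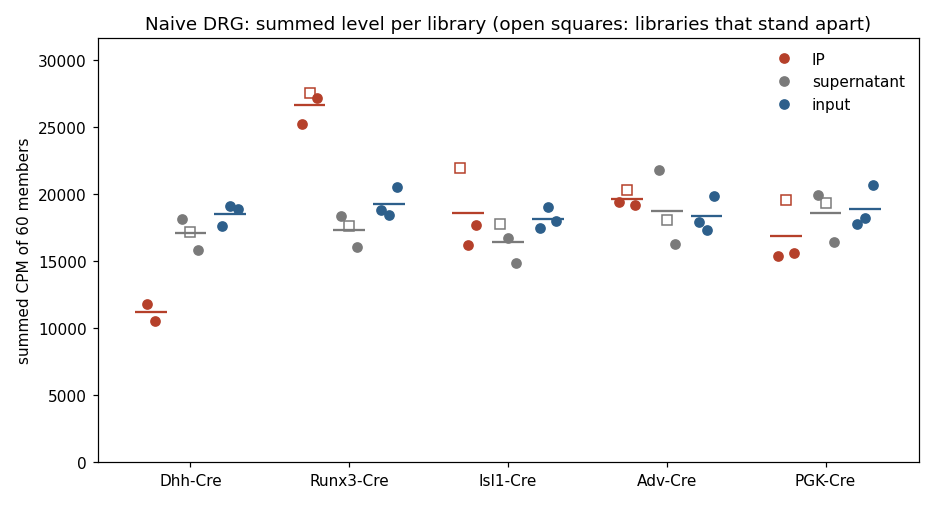
Summed CPM of the 60 members listed in every table, for each naive library (points) with the group mean (bar), by Cre line and fraction, and open squares for libraries that stand apart. The 3 Runx3 IP libraries lie at 25220 to 27550 CPM and the 2 Dhh IP libraries at 10590 and 11810 CPM, whereas the input means lie at 18190 to 19310 CPM.

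Glial pull-downs were compared with sensory neuron pull-downs to ask how cell type sets the level of these transcripts. Of the 72 members tested in the Dhh IP against the Isl1 IP, 36 were lower and 5 were higher (edgeR quasi-likelihood test, Benjamini-Hochberg FDR under 0.1 over all genes). Among all 10573 genes tested, 43.5% were lower and 41.3% higher, so the share of members lower (50.0%) was near the background and the share higher (6.944%) was far under it. The median log2 change was -0.63 over the members and -0.05 over all genes. By complex, 17 of 32 complex I members were lower (1 higher), 2 of 4 in complex II (1 higher), 2 of 7 in complex III, 6 of 15 in complex IV (3 higher) and 9 of 14 in complex V. Without the libraries that stood apart 38 were lower and 8 higher, beside 44.4% and 45.7% over all genes, and the median was -0.31.

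Single subunits show the size of these differences. Sdhb, the iron-sulfur subunit of complex II, had 99.0 and 103 CPM in the Dhh IP, against 249, 225 and 262 CPM in the Isl1 IP (log2 change -1.22 ± 0.17 SE, FDR 2.5e-05). Its partner Sdha, the flavoprotein that oxidizes succinate, had 406 and 381 CPM in the Dhh IP and 375, 432 and 412 CPM in the Isl1 IP and was not called. Within complex II, Sdhd was also lower and Sdhc higher. Ndufa9, an accessory subunit of complex I, had 110 and 103 CPM in the Dhh IP, against 195, 188 and 199 CPM in the Isl1 IP (-0.81 ± 0.11, FDR 1.8e-05). Atp5a1, the alpha subunit of the ATP synthase, had 661 and 667 CPM in the Dhh IP, against 1115, 1292 and 1271 CPM in the Isl1 IP (-0.82 ± 0.13, FDR 7e-05). For each of these called genes both Dhh libraries lay under all Isl1 libraries. The beta subunit Atp5b, which carries the catalytic sites, had 862 and 1117 CPM in the Dhh IP and 1212, 1898 and 1696 CPM in the Isl1 IP. Its groups did not overlap either, but with its wide spread within lines it was not called (-0.63 ± 0.51, FDR 0.27), and it was called without the libraries that stood apart (-0.69). Cox5a, a subunit of complex IV, had 221 and 135 CPM in the Dhh IP and 757, 366 and 435 CPM in the Isl1 IP (-1.50 ± 0.52, FDR 0.019). Its size rested in part on Isl1 replicate 1, and it was -1.01 without the libraries that stood apart.

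The 5 members called higher in this Dhh IP, of 2 libraries, were Cox6b2, Cox4i2, Cox7a1, Sdhc and Ndufa13. Cox6b2, best known as the testis form of Cox6b, had 20.6 and 17.0 CPM in the Dhh IP, against 0.268, 0.111 and 0.283 CPM in the Isl1 IP (log2 change 6.47 ± 0.53, FDR 2.3e-07). Cox7a1, the heart and muscle form of Cox7a, had 24.1 and 19.0 CPM in the Dhh IP, against 6.05, 2.74 and 3.19 CPM in the Isl1 IP (2.49 ± 0.48, FDR 0.00047). Cox4i2, the form of Cox4 known from lung, had 7.60 and 4.07 CPM in the Dhh IP, against 1.56, 0.573 and 0.794 CPM in the Isl1 IP (2.63 ± 0.53, FDR 0.00059). In all 3 genes the Dhh libraries lay above every Isl1 library, and without the libraries that stood apart the changes were 6.72, 3.02 and 3.24. The widespread partners did not rise: Cox6b1 had 377 and 283 CPM in the Dhh IP and 792, 382 and 446 CPM in the Isl1 IP. Thus even in glia the alternative form was at a small part of the level of its partner. The 7 mural cell markers, where Cox4i2 is also known, stood at 92.8 to 126 CPM in sum in Dhh libraries and 24.3 to 72.7 CPM in Isl1 libraries, and the 6 fibroblast markers at 708.8 to 1016 CPM in Dhh libraries and 46.3 to 49.1 CPM in Isl1 libraries. Their part in these rises was not tested. Sdhc, a membrane anchor of complex II, had 328 and 264 CPM in the Dhh IP and 209, 131 and 155 CPM in the Isl1 IP (0.90 ± 0.33, FDR 0.025). Ndufa13, an accessory subunit of complex I, was higher by 0.65 ± 0.33 (FDR 0.086), but it overlaps Yjefn3 on the same strand, so their reads may have been split between them. The naive libraries of the injury series, not tested between lines, did not repeat the rises of Cox7a1, Sdhc and Ndufa13. Cox7a1 there had 0.33, 0.49 and 0.44 CPM (Dhh IP) and 1.6, 2.0 and 2.4 CPM (Isl1 IP). Ndufa13 had 21.5, 24.5 and 32.4 CPM (Dhh) and 93.7, 103 and 91.7 CPM (Isl1). Sdhc had 99.2, 101 and 108 CPM (Dhh) and 99.3, 102 and 96.1 CPM (Isl1). Cox4i2 was listed in neither IP of that series, and Cox6b2 in the Dhh IP only.

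**Figure D2:**
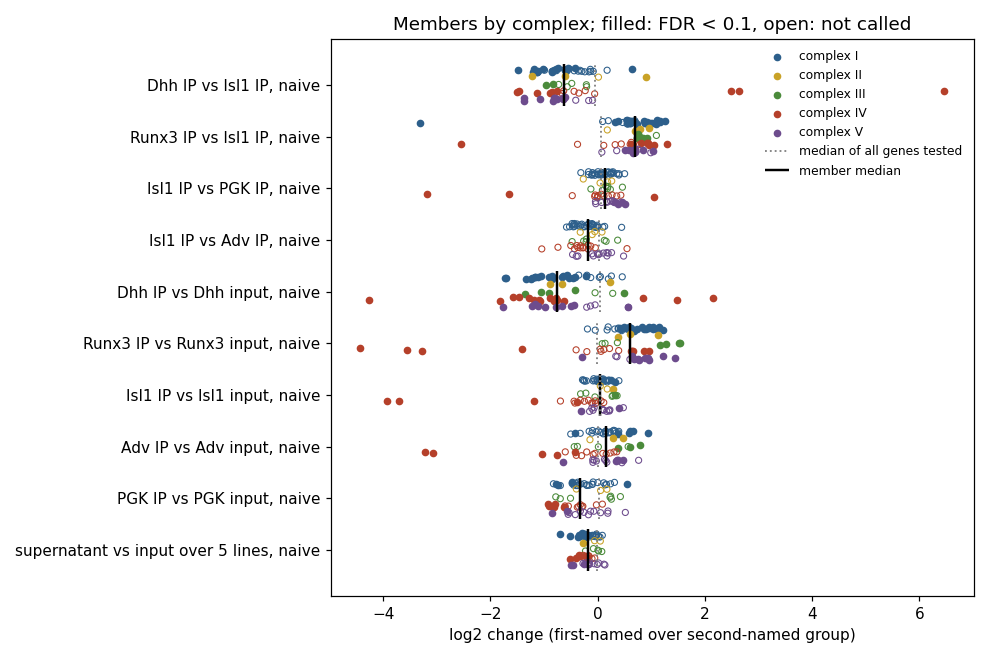
Log2 change of each member tested (points, colored by complex, filled where FDR is under 0.1) in the naive comparisons, with the member median (black bar) and the median of all genes tested (dotted). The member median is -0.63 in the Dhh IP and 0.70 in the Runx3 IP, both against the Isl1 IP, and Cox6b2, Cox4i2 and Cox7a1 stand off to the right in the Dhh IP.

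Proprioceptors, the large neurons that sense muscle stretch, showed the opposite pattern. Of 72 members, 47 were higher and 2 lower in the Runx3 IP against the Isl1 IP. Of all genes tested 30.0% were higher and 25.8% lower, beside 65.28% and 2.778% of the members. The median log2 change was 0.70 for the members and 0.06 for all genes, and 69 of the 72 had a positive change. By complex, 23 of 32 were higher in complex I, 3 of 4 in complex II, 5 of 7 in complex III, 7 of 15 in complex IV and 9 of 14 in complex V. Without the libraries that stood apart 65 were higher and 2 lower, beside 36.5% and 28.7% over all genes, with a median of 0.83. The count was 27 without Isl1 replicate 2 and 28 without Isl1 replicate 3.

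Sdha had 712, 626 and 707 CPM in the Runx3 IP, against 375, 432 and 412 CPM in the Isl1 IP (log2 change 0.95 ± 0.08, FDR 1.9e-06). Ndufs1, which carries iron-sulfur clusters in complex I, had 248, 219 and 247 CPM in the Runx3 IP, against 128, 157 and 135 CPM in the Isl1 IP (0.97 ± 0.10, FDR 7.1e-06). Uqcrfs1, the Rieske iron-sulfur protein of complex III, had 424, 457 and 452 CPM in the Runx3 IP, against 320, 244 and 250 CPM in the Isl1 IP (0.92 ± 0.15, FDR 0.00037). Atp5a1 had 1970, 1469 and 1730 CPM in the Runx3 IP, against 1115, 1292 and 1271 CPM in the Isl1 IP (0.69 ± 0.11, FDR 0.00026). In each of these 4 genes every Runx3 library lay above every Isl1 library. Cox5a, at 740, 1505 and 1016 CPM in the Runx3 IP and 757, 366 and 435 CPM in the Isl1 IP, rose by more (1.28 ± 0.45, FDR 0.034) but its groups overlapped through Isl1 replicate 1. Both called falls were of genes at low level. Cox4i2 had 0.0865, 0.173 and 0.173 CPM in the Runx3 IP and 1.56, 0.573 and 0.794 CPM in the Isl1 IP (-2.55 ± 0.60, FDR 0.0039). Ndufs5, an accessory subunit of complex I, had 0.303, 0.288 and 0.324 CPM in the Runx3 IP and 7.25, 0.148 and 3.19 CPM in the Isl1 IP (-3.32 ± 0.94, FDR 0.012), so that its Isl1 libraries themselves disagreed.

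Cell composition differed between these pull-downs beyond the tagged class. The 10 nociceptor markers summed to 561.5 to 579.0 CPM in the Runx3 IP and 5983 to 7731 CPM in the Isl1 IP. The 7 neutrophil markers summed to 64.6 to 226 CPM in the Runx3 IP and 4.17 to 10.0 CPM in the Isl1 IP, and 4 of 7 erythrocyte markers to 6.49 to 26.7 CPM and 0.586 to 0.964 CPM. Their part in the members' rise was not tested.

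With all libraries, few members were called in the Isl1 IP against the mixed PGK IP, and none between the 2 neuronal drivers. The result for the drivers changed with the libraries kept. In the Isl1 IP against the PGK IP, 5 of 72 members were higher and 2 lower, beside 5.3% and 15.0% of all genes. Those higher were Cox7b, Atp5g1, Atp5sl, Atp5j and Atp5o, with log2 changes of 0.31 to 1.05, and those lower were Cox6b2 (-3.18 ± 0.47, FDR 0.00038) and Cox4i2 (-1.65 ± 0.49, FDR 0.038). Cox6b2 had 1.57, 2.04 and 2.68 CPM in the PGK IP, above every Isl1 library. With the DESeq2 size factors, which moved the share of higher genes among all calls to 36.8% from 26.1%, 8 members were higher and 2 lower. The total was 3 without PGK replicate 1 and 2 without PGK replicate 2. In the Isl1 IP against the Adv IP no member was called by edgeR or DESeq2, and no member had an unadjusted p under 0.05. Of all 10573 genes edgeR called 0.0% in either direction, and the DESeq2 Wald test called 76 higher and 111 lower. The members' median was -0.17, beside 0.02 for all genes. Without the libraries that stood apart 34 members were lower and 1 higher in the Isl1 IP, with a median of -0.37, beside 9.32% and 12.0% over all genes and a median of 0.02.

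**Figure D3:**
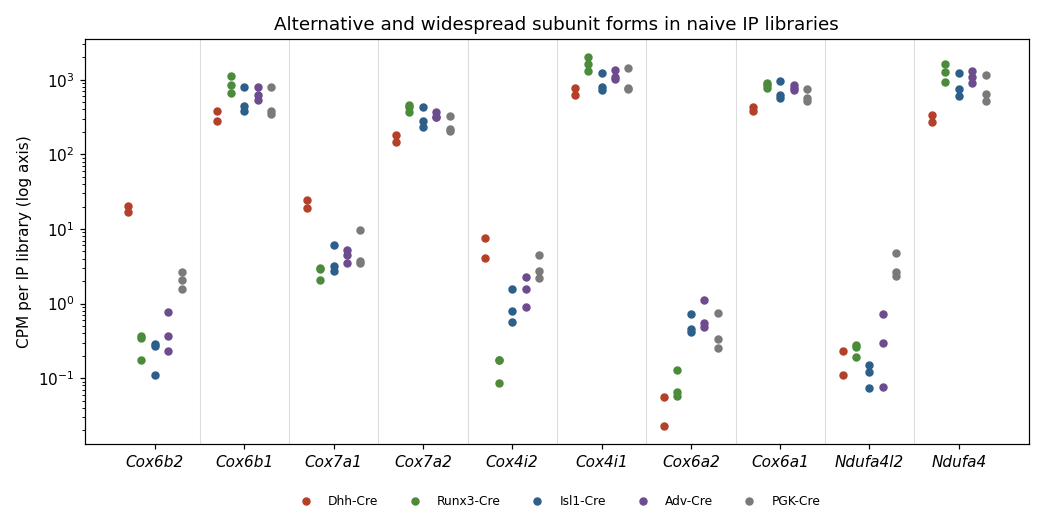
CPM (log axis) of complex IV subunit forms in each naive IP library, colored by Cre line, each alternative form left of its widespread partner. Cox6b2 stands at 17.0 and 20.6 CPM in the Dhh IP and at 0.111 to 0.283 CPM in the Isl1 IP, whereas Ndufa4l2 is highest in the PGK IP, at 2.32 to 4.74 CPM.

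Other alternative forms stayed near the floor in every pull-down. Ndufa4l2, the low-oxygen relative of Ndufa4, had 2.62, 4.74 and 2.32 CPM in the PGK IP, and at most 0.731 CPM in any other IP library. Cox6a2, a heart and muscle form, was at most 1.104 CPM in any IP library. With Cox7b2 and Cox8b, these 2 genes are the 4 of the 76 listed members that did not pass the filter of a mean FPKM above 1, so they were not tested between pull-downs. The 4 skeletal muscle markers listed summed to 0.574 to 5.94 CPM over the Dhh, Runx3, Isl1, Adv and PGK IP libraries.

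The IP was then set against the input of the same line, to ask which members the tagged ribosomes carried more or less of than the whole ganglion. In bulk RNA, fewer cells of a type and less RNA per cell cannot be told apart. In the Runx3 IP 41 of 67 members were higher and 5 lower than in the Runx3 input (median log2 change 0.60), beside 35.6% and 37.7% over all genes. Set against the Dhh input, the Dhh IP held 6 members at a higher and 47 at a lower level (median -0.77), beside 43.1% and 42.0% over all genes. The short genes that are not members (transcripts under 1000 bases) also lay low in the Dhh IP, with a median of -0.71 and 401 of 725 lower. The members are short too, with a median transcript of 681 bases beside 2676 bases for all genes, and the part of length in these differences was not tested.

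In the sensory neuron lines the counts were smaller and the directions mixed. The Isl1 IP had 5 members higher and 5 lower than its input (median 0.04), beside 12.8% and 19.4% of all genes, and the Adv IP had 14 higher and 7 lower (median 0.15), beside 22.1% and 25.5%. The PGK IP had 1 higher and 10 lower (median -0.32), beside 8.9% and 10.1%. Some members were higher in the Isl1, Adv and Runx3 pull-downs alike. Atp5a1 had 1115, 1292 and 1271 CPM in the Isl1 IP, against 846, 1077 and 954 CPM in the Isl1 input (0.40 ± 0.12, FDR 0.014). Ndufa9, Sdha and Uqcrfs1 were also called higher in the Isl1 IP. Like Atp5a1, each was called higher in the Adv and Runx3 pull-downs against their own inputs too. Without the libraries that stood apart, none of these genes was called higher in the Isl1 IP against its input.

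Members lower in the neuronal pull-downs than in their inputs included the alternative forms. Ndufa4l2 had 0.122, 0.0740 and 0.151 CPM in the Isl1 IP, against 1.86, 1.76 and 1.94 CPM in the Isl1 input (-3.93 ± 0.53, FDR 3e-06), and it was lower by 3.22 to 4.26 on the log2 scale in the Adv, Runx3 and Dhh pull-downs as well. Cox6b2 had 0.268, 0.111 and 0.283 CPM in the Isl1 IP, against 2.72, 2.41 and 3.79 CPM in the Isl1 input (-3.70 ± 0.39, FDR 1.2e-07). It had 20.6 and 17.0 CPM in the Dhh IP, against 4.51, 4.64 and 4.43 CPM in the Dhh input (2.14 ± 0.35, FDR 8.5e-06). In neither line did IP and input overlap for Cox6b2. In the PGK IP neither gene was called. Its 10 falls included the small complex IV subunits Cox8a (-0.91 ± 0.16), Cox7c (-0.81 ± 0.19), Cox7a2 (-0.79 ± 0.21) and Cox6a1 (-0.63 ± 0.17). The ribosomal proteins of the cytosol, also of short transcript, were lower for 25 of 41 in the PGK IP, with a median of -0.80.

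These counts depended on single libraries. Without the libraries that stood apart, the Isl1 IP had 0 members higher and 14 lower (median -0.26), the Adv IP 14 higher and 11 lower (median 0.00), the Runx3 IP 35 and 6, the Dhh IP 9 and 47, and the PGK IP 0 and 36 (median -0.62). Over all genes the shares higher and lower in these fits were 10.3% and 19.2% (Isl1), 19.6% and 25.1% (Adv), 34.2% and 37.0% (Runx3), 44.8% and 42.0% (Dhh), and 5.89% and 10.3% (PGK). With the replicate number as a block the PGK IP had 5 members higher and 22 lower, beside 1864 higher and 1828 lower of all 10268 genes. The PGK count was 7 without PGK IP replicate 1 or 3 and 38 without replicate 2, the Adv count 10 without Adv IP replicate 1, and the Isl1 count 5 without Isl1 IP replicate 3 and 6 without Isl1 input replicate 1 or 3.

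The supernatant, averaged over the 5 lines, had 21 of 64 members lower and 0 higher than the input (median -0.18 for members and -0.01 for all genes). Of all genes tested 10.3% were lower and 10.2% higher. In this fit no member was called higher by edgeR, nor by the DESeq2 Wald test, and 24 had an unadjusted p under 0.05 in either direction. With the replicate number as a block edgeR called 32 lower and 1 higher, beside 2470 lower and 2103 higher of all 10419 genes. Cox8a was lower by 0.40 ± 0.06 on the log2 scale (FDR 0.00019), at 451 to 736 CPM over the 15 supernatant libraries and 661 to 835 CPM over the 15 inputs. The falls were small, at 0.19 to 0.69, and lay in complex I (10), complex II (1), complex IV (7) and complex V (3). Short genes that are not members had a median of -0.19 in the same comparison. Without the libraries that stood apart 35 members were lower and 0 higher (median -0.26), beside 10.8% and 9.6% over all genes.

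After sciatic nerve injury few members were called in sensory neurons. Over the 60 members listed in every table, the summed level in the Isl1 IP was 12700, 12940 and 12630 CPM in naive mice, 13310, 11990 and 12530 CPM at 4 h, 13450, 13660 and 12760 CPM at 12 h, and 12900, 11740 and 11750 CPM at 24 h. The libraries of every time overlapped the naive ones. Of 79 members tested, none was called at 4 h or 12 h, and 1 at 24 h, in the fits of all groups by edgeR or DESeq2. With only the groups compared in the fit, edgeR called 6 at 4 h (1 higher, 5 lower), 1 at 12 h (higher) and 0 at 24 h. Of all 11346 genes these fits called 616 higher and 826 lower at 4 h. They called 849 and 1016 at 12 h, and 909 and 436 at 24 h. The counts at an unadjusted p under 0.05 in the fit of all groups were 4, 0 and 3. The median log2 changes were -0.02, 0.08 and -0.08 with a median standard error of 0.09 over the members. At 4 h 55 members had a negative change, and at 24 h 72 did. At 12 h 72 had a positive change. These signs come from the same few libraries and were not tested as a set. In the fit of all groups the shares of all genes higher and lower were 0.626% and 2.43% at 4 h, 2.28% and 2.77% at 12 h, and 11.2% and 7.34% at 24 h. The member called was Sdhc, with 89.1, 83.7 and 84.5 CPM at 24 h, against 99.3, 102 and 96.1 CPM in naive mice (-0.18 ± 0.06, FDR 0.061). Sdhc at 24 h lay under every naive library. The count at 24 h was 10 (all lower) without the 24 h replicate 1, and 0 without the 24 h replicate 3 or any 1 of the 3 naive replicates.

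The Isl1 input had summed levels of 11330, 10790 and 10720 CPM in naive mice, 10120 and 10470 CPM at 4 h, 11420 and 10630 CPM at 12 h, and 10530 and 10660 CPM at 24 h. At 4 h and 24 h both libraries lay under the naive ones by library total. By TMM effective library size they overlapped at both times, with 10340 and 10520 CPM at 4 h, 10810 and 10480 CPM at 24 h, and 11080, 10550 and 10510 CPM in naive mice. None of 81 members was called at any time in the fits of all groups by edgeR or DESeq2, and 7, 3 and 4 had an unadjusted p under 0.05. With only the groups compared edgeR called 2 at 4 h and 3 at 12 h, and with a replicate block 1 at 24 h (higher). Of all 12294 genes the groups-only fits called 343 higher and 353 lower at 4 h, and 707 and 788 at 12 h. The block fit called 435 higher and 174 lower at 24 h. In the fits of all groups, all genes were higher and lower for 0.521% and 0.765% at 4 h, 2.22% and 2.25% at 12 h, and 5.65% and 2.71% at 24 h. Leaving out the 24 h input replicate 3 called 2 members lower at 24 h. The change in the Isl1 IP was also set against the change in the Isl1 input by an interaction term. No member of 79 was called at 4, 12 or 24 h by edgeR or DESeq2, and none had an unadjusted p under 0.05. The medians of the difference were 0.07, 0.07 and -0.03. Of all genes, 0.0% were higher and 0.0264% lower at 4 h, 0.0176% higher and 0.0% lower at 12 h, and 0.0% either way at 24 h.

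**Figure D4:**
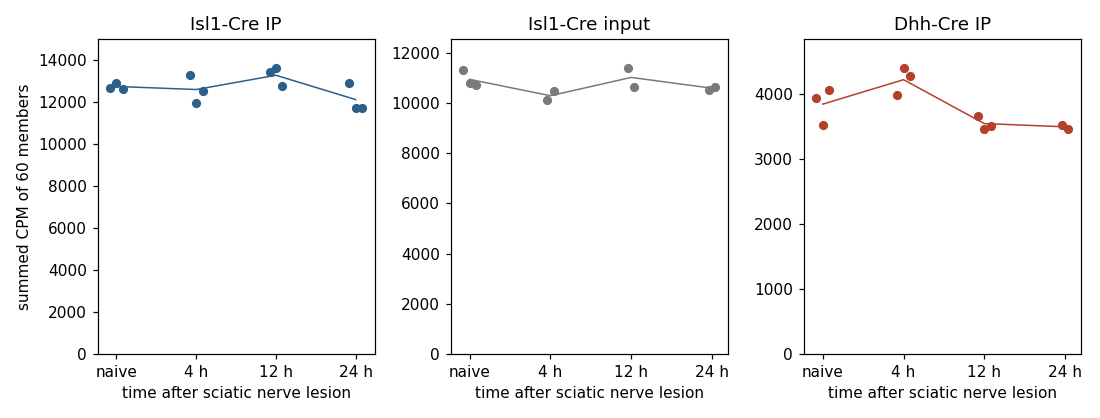
Summed CPM of the 60 members in each library (points) and its mean (line) in naive mice and at 4, 12 and 24 h after the nerve lesion, with a separate axis from 0 for each of the Isl1 IP, the Isl1 input and the Dhh IP. The Dhh IP has 3467 to 3658 CPM at 12 h and 3527 to 4060 CPM in naive mice, and the Isl1 IP stays between 11740 and 13660 CPM. Atp5b alone holds 1655 to 1966 CPM of the Dhh IP sum at 12 h and 1547 to 1951 CPM in naive mice.

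In glia some members changed at 12 h. The summed level in the Dhh IP was 3945, 3527 and 4060 CPM in naive mice, 3984, 4408 and 4270 CPM at 4 h, 3658, 3467 and 3510 CPM at 12 h, and 3522 and 3469 CPM at 24 h. The direction of the sum at 12 h flipped with the scaling. By TMM effective library size its mean was 3886 CPM at 12 h and 3701 CPM in naive mice. Atp5b alone had 1828, 1655 and 1966 CPM at 12 h, against 1951, 1547 and 1742 CPM in naive mice (log2 change 0.26, not called). The sum therefore leans heavily on this gene, whose fitted change had the opposite sign to the members' median. At 12 h 7 of 79 members were lower and 0 higher, beside 15.2% and 17.7% of all genes. The share of members lower (8.861%) was under the background. The median log2 change was -0.17 for the members and -0.01 for all genes. DESeq2 also called none higher at 12 h (10 lower), and 11 members had an unadjusted p under 0.05. At 4 h and 24 h no member was called by either tool, with 2 members at an unadjusted p under 0.05 at each time and medians of 0.02 and -0.19. All genes were then higher and lower for 0.515% and 0.614% at 4 h, and 1.3% and 1.43% at 24 h.

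The members lower at 12 h belonged to complex I, Ndufa9, Ndufc2, Ndufs1 and Ndufs4 among them, and to complex V, with Atp5k and the non-subunit Atp5s. Ndufs1 had 35.1, 42.4 and 36.5 CPM at 12 h, against 56.2, 57.2 and 52.8 CPM in naive mice (-0.35 ± 0.13, FDR 0.07). Ndufc2, an accessory subunit of complex I, had 9.09, 13.3 and 9.24 CPM at 12 h, against 18.0, 16.1 and 17.4 CPM in naive mice (-0.51 ± 0.20, FDR 0.076). Atp5k, the e subunit of the ATP synthase, had 2.17, 1.72 and 1.28 CPM at 12 h, against 2.54, 3.34 and 4.84 CPM in naive mice (-0.87 ± 0.36, FDR 0.087). In these 3 genes every 12 h library lay under every naive library. The fitted changes are smaller than the ratios of CPM would give, since the fit scales libraries by TMM factors. Sdhb went the other way at 4 h, at 19.0, 18.3 and 17.4 CPM, against 14.1, 12.0 and 14.7 CPM in naive mice, but was not called (0.46 ± 0.18, FDR 0.36). Cox6b2 stood at 1.45, 1.24 and 3.51 CPM at 12 h and 1.96, 1.76 and 2.56 CPM in naive mice, with no call at any time.

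The 12 h glial calls rested on few libraries. The count was 3 without the 12 h replicate 1 or naive replicate 1, 2 without naive replicate 2, and 2 (1 of them higher) without naive replicate 3, and every fit that left out a library of the comparison gave 2 to 5. With only the groups compared in the fit the count was 1, beside 1632 higher and 1294 lower of all 11072 genes tested. On the axis of non-member genes, 12 h replicate 3 scored 0.318, and no other library of this series scored above 0.056. The 13 sensory neuron markers moved at the same time, with 10 higher and 0 lower at 12 h. They summed to 1291 to 1410 CPM at 12 h and 1060 to 1271 CPM in naive mice, while the 9 satellite glia markers summed to 12130 to 13480 CPM at 12 h and 14460 to 17210 CPM in naive mice. The single macrophage marker listed was at 2.12 to 5.03 CPM at 12 h and 0.118 to 0.352 CPM in naive mice. Their part in the members' change was not tested. The naive Dhh libraries of this series also differ from the naive Dhh libraries above, with a mean summed level of 3844 CPM here and 11200 CPM there, and the 2 tables were not tested against each other. The complex IV members summed to 233.2, 253.6 and 330.7 CPM here and 3373 and 2576 CPM there. Atp5k had 2.54, 3.34 and 4.84 CPM here and 160 and 128 CPM there. Atp5b went the other way, with 1951, 1547 and 1742 CPM here and 862 and 1117 CPM there.

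The neuronal and glial responses were compared directly by the difference of their changes. At 12 h 15 of 78 members were higher in the Isl1 IP response minus the Dhh IP response and 0 lower (median 0.29, beside 0.05 for all genes). Of all genes 13.3% were higher and 12.4% lower, against 19.23% of the members higher. No lower member was called by edgeR or DESeq2, which called 12 higher, and 22 members had an unadjusted p under 0.05. Of the 15, 11 belonged to complex I, among them Ndufa9, Ndufc1, Ndufc2, Ndufs1 and Ndufs6, and 4 to complex V (Atp5e, Atp5f1, Atp5k and Atp5s).

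The difference came to 0.68 ± 0.18 for Ndufc2 (FDR 0.011), which had 107, 97.9 and 94.5 CPM at 12 h and 93.6, 96.7 and 87.9 CPM in naive mice in the Isl1 IP, beside the fall in the Dhh IP given above. Atp5k had the largest, 1.03 ± 0.28 (FDR 0.014), with 121, 122 and 97.5 CPM at 12 h and 104, 112 and 104 CPM in naive mice in the Isl1 IP. Ndufc1 differed by 0.69 ± 0.19 (FDR 0.016). Its Dhh IP levels were 4.08, 3.66 and 4.41 CPM at 12 h and 6.93, 7.03 and 6.62 CPM in naive mice. The changes in the Isl1 IP itself were 0.12 for Ndufc2, 0.11 for Atp5k and 0.09 for Ndufc1, none of them called. Short genes that are not members had a median difference of 0.24 at 12 h, with 104 of 649 higher and 23 lower. With DESeq2 size factors 39.2% of all calls were higher, against 51.6% with TMM, and 12 members were higher and 0 lower. The count was 9 without Isl1 IP 12 h replicate 2 or Isl1 naive replicate 1, 7 (1 lower) without Dhh naive replicate 3 and 23 without Dhh naive replicate 1.

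At 4 h the difference was called for 1 member, Sdhb (-0.48 ± 0.12, FDR 0.093), with 0.342% of all genes higher and 0.523% lower. Sdhb in the Isl1 IP had 195, 177 and 187 CPM at 4 h, against 189, 188 and 192 CPM in naive mice. The call was lost without any 1 of 11 of the 12 libraries, Dhh naive replicate 3 being the exception. At 24 h no member was called by edgeR or DESeq2 and 3 had an unadjusted p under 0.05, with 1.76% of all genes higher and 1.11% lower.

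**Figure D5:**
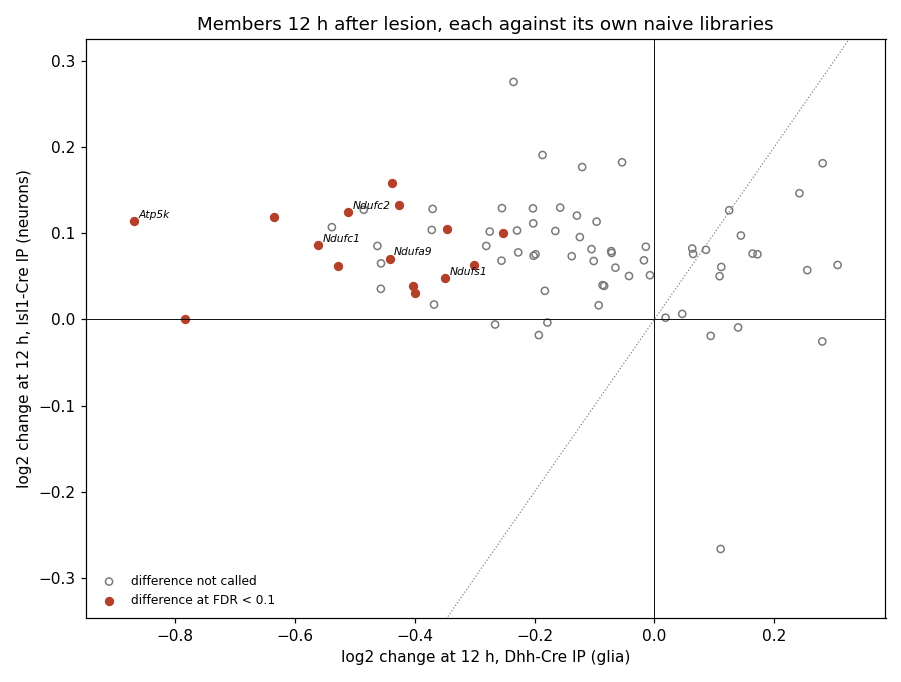
Log2 change of each member at 12 h against its own naive libraries in the Isl1 IP (vertical axis) and the Dhh IP (horizontal axis), with the 15 members whose difference passed an FDR of 0.1 filled and 5 of them named. The filled points lie between 0.00 and 0.16 in the Isl1 IP and between -0.87 and -0.25 in the Dhh IP.

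Other mitochondrial gene lists gave their own counts in the same comparisons. In the Runx3 IP against the Isl1 IP, 13 of 18 genes of the tricarboxylic acid cycle were higher and 1 lower (median log2 change 0.66), 15 of 31 respiratory chain assembly factors were higher and 0 lower (0.41), 23 of 55 mitochondrial ribosomal proteins were higher and 1 lower (0.34), and 8 of 12 regulators of mitochondrial biogenesis were higher and 0 lower (0.74). Glycolysis genes were higher for 6 of 15 and lower for 1 (0.25), and proteasome subunits higher for 8 of 34 and lower for 1 (0.16). Of all genes tested in this comparison, 30.0% were higher and 25.8% lower. In the Dhh IP against the Isl1 IP, 26 of 31 assembly factors, 38 of 55 mitochondrial ribosomal proteins, 13 of 18 tricarboxylic acid cycle genes, 13 of 15 glycolysis genes and 29 of 34 proteasome subunits were lower. The regulators of biogenesis were split, with 7 of 12 higher and 4 lower in the Dhh IP. Over all genes the shares were 43.5% lower and 41.3% higher. At 12 h in the Dhh IP, 10 of 41 assembly factors and 16 of 73 mitochondrial ribosomal proteins were lower, with medians of -0.39 and -0.30. The share lower over all genes was 15.2%.

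Over the 14 naive IP libraries, the genes outside the members whose log2 CPM most resembled the members' mean were Acbd6 (Pearson's r 0.9926), Ddx47 (0.9906) and Idnk (0.983). Among the members themselves r with that mean was lowest for Cox4i2 (-0.65), Cox6b2 (-0.65) and Cox7a1 (-0.46), and it was 0.07 for Atp5b. The libraries share lines, and some stood apart, so these values describe this set of libraries only.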

How the data were processed

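The authors deposited raw counts for each gene, and these were used for 76 libraries in 6 tables. They depleted ribosomal RNA (Ribo-Zero), amplified cDNA (Ovation V2), aligned reads with STAR to mm10 and counted fragments with HTSeq. A normalized signal that the authors deposited beside the counts (a single factor for each library) was not used. For strand use, the sources used here give nothing. The submitters' notes also name CASAVA 1.8.2, edgeR and mm9. Of the 77 samples in the labels, 1 naive Dhh IP sample was not analysed here. Of the members, 25 overlap another protein-coding gene (6 on the same strand) and 5 have a named pseudogene, with which they may share reads.

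Genes with a mean FPKM above 1 (count over library total and transcript length) were tested with edgeR 4.0.16 (TMM, quasi-likelihood, R 4.3.3) within each table or joined pair of tables over all genes, with every group in the fit, at Benjamini-Hochberg FDR under 0.1. The FPKM and FDR limits and TMM are those of the study, which names edgeR's negative binomial models and not the quasi-likelihood test. CPM is the count over the library total. SE is the log2 change over the root of F. Fits were tested on simulated data. Alternatives were DESeq2 1.42.0 (size factors or Wald test), no filter, only the groups compared, a replicate block, and leaving out each library. Members, lists and named genes were chosen with earlier results of these data known. Named were the alternative forms, the core subunits and up to 5 rises and 5 falls of smallest p per comparison, and the other members named were picked after their values were seen. Replicates are separate samples by label and are tied to no animal, so a p-value reflects only how far samples spread, which may be technical. Same-numbered Isl1 IP and input libraries of the injury series deviated together (9 of 9 pairs with r above 0.1). By the study's methods part of each lysate was kept as input. The replicate block called no member there either. Python 3.11.15, pandas 2.3.3 and matplotlib drew the summaries. A withheld item is not reported here.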

Additional observations from a re-analysis of the deposited data

Results flagged for a closer look

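Of the members whose response to injury differed between neurons and glia, 6 were among the genes named by the rule. At 4 h the Isl1 IP response minus the Dhh IP response was -0.48 for Sdhb. At 12 h it was 1.03 for Atp5k, 0.69 for Ndufc1, 0.68 for Ndufc2, 0.55 for Ndufa9 and 0.44 for Ndufs1. Each is a test of the difference itself, as an interaction term in edgeR with FDR under 0.1 over all genes. The 5 differences at 12 h kept their direction and stayed called in all 17 alternatives run, and that of Sdhb lost its call in 12 of 17. Groups here hold 2 or 3 libraries, and libraries that stand apart were set off only among the naive IP and supernatant libraries. In the Dhh IP injury series the axis of non-member genes carried 38.0% of the within-group variance. On it 12 h replicate 3 scored 0.318, and no other library of that series scored above 0.056. Leaving out this library was among the alternatives.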

How the results depend on the processing

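Of the 25 counts of members called, those with DESeq2 size factors and with no FPKM filter stayed within 1.5 times throughout. Directions were compared only for the members named by the rule, and no alternative turned that of a called one. Of 8218 single changes of these members refitted, 508 had another sign, none of them called in the full fit (Cox4i1 and Cox8a in Dhh against Isl1 among them). Isl1 against PGK had 7 members called, 12 by the DESeq2 Wald test, 2 with only the groups compared and 4 without the libraries that stood apart. Of all 10573 genes the Wald test called 1238 higher and 1611 lower, and the groups-only fit 138 and 1327. Without the libraries that stood apart 738 were higher and 1904 lower. That last setting, chosen after seeing the data, also gave 35 for Isl1 against Adv (0 with all), 36 for the PGK IP against input (11 with all) and 35 for the supernatant (21 with all). Fits of only the groups compared gave 4 for the PGK IP against input, 6, 1 and 0 for the Isl1 IP at 4, 12 and 24 h (0, 0 and 1 in the full fit), 2 and 3 for the Isl1 input at 4 and 12 h (0 and 0), 1 for the Dhh IP at 12 h (7), and 2 for the Isl1 minus Dhh difference at 4 h (1). Of all genes tested, the groups-only fits called 108 higher and 221 lower for the PGK IP against input. They called 157 higher and 159 lower for the Isl1 minus Dhh difference at 4 h. The causes were not tested.

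The replicate block gave 27 for the PGK IP against input, 33 for the supernatant, 1 for the Isl1 input at 24 h and 0 for the Isl1 minus Dhh difference at 4 h, and changed no other count by over 1.5 times. Replicate numbers were no shared batch in the labels, and deviations of same-numbered naive IP and input libraries correlated above 0.1 in 10 of 14 pairs, and of supernatant and input in 13 of 15.

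Leaving out 1 library at a time gave 34 to 43 for Dhh against Isl1, 27 to 60 for Runx3 against Isl1, 2 to 7 for Isl1 against PGK, 0 to 0 for Isl1 against Adv, and against input 5 to 12 (Isl1), 10 to 22 (Adv), 36 to 48 (Runx3), 41 to 53 (Dhh) and 7 to 38 (PGK). It gave 19 to 29 for the supernatant, 0 to 10 for the Isl1 IP and 0 to 2 for the Isl1 input at 24 h, 2 to 5 for the Dhh IP at 12 h, and 0 to 1 at 4 h and 7 to 23 at 12 h for the Isl1 minus Dhh difference. These ranges are given without the shares over all genes in the same fits. Groups left with 1 library were assumed to vary like the others. All other injury counts stayed at 0. With library sizes scaled by TMM the summed level moved by more than the spread for the Runx3 IP (29180 CPM) and the Dhh IP at 12 h (3886 CPM) and 24 h (3274 CPM). Totals of 29710143 or more counts left members under 1 CPM, such as Cox6b2 in neurons, with few counts and wide errors.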
